A study of Mus musculus with 24 samples.

Results

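The genes described here are 38 genes of DNA replication: the MCM helicase, the factors that load and fire it at origins, the primase, polymerases, clamp, clamp loader, flap and nick enzymes of the fork, and 4 regulators of the step from G1 into S phase. They were picked by symbol from a table of 27368 genes, with earlier results of these data known. All 38 were in the table and all 38 were tested, among 16560 genes that passed a filter on low counts. RNA was sequenced from 24 whole tumours of SCC7, a mouse squamous cell carcinoma line, grown in the flank of female C3H mice aged 6 to 8 weeks from about 1000000 injected cells. In the NC groups the cells carried an empty vector, and in the OE groups they overexpressed the microRNA miR-21-5p. The promoter of the vector and the number of clones are not given in the sources used here. Treatment began near a tumour volume of 300 cubic millimetres. NC sham and OE sham tumours got neither X-rays nor drug. NC IR and OE IR tumours got 8 Gy of X-rays per day on 3 days, with the rest of the mouse shielded. NC olaparib and OE olaparib mice got 50 mg/kg of olaparib, an inhibitor of PARP enzymes, into the peritoneum, scheduled 2 hours ahead of the daily irradiation and once more the day after its end. NC IR+olaparib and OE IR+olaparib tumours got both. Each of these 8 groups had 3 tumours, and the time of collection after treatment is not given in the sources used here.

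Groups follow the letters of each tumour's identifier: S for NC sham, I for NC IR, O for NC olaparib, IO for NC IR+olaparib, and the same letters after E for the OE groups. Tumours are named below by group and identifier, which stands for a replicate number. The written treatment label names another group for most of them: only 5 of 24 tumours have the same group in both, and 16 of 24 have the same radiation status in both. A further cell type field says OE for all 24. The main comparisons are therefore repeated under the written label and in the 16 tumours on which both labels give the same radiation status. The labels do not say that the 3 tumours of a group came from separate mice, so p-values measure the spread between these tumours. Genes of squamous epithelium were close to 0 in most of them: Krt5 and Krt14, the basal keratins, were under 5 CPM (counts per 1000000 reads) in 19 of 24 tumours, and Trp63 in 23. Epcam, an epithelial gene that does not mark squamous cells in particular, was under 5 CPM in 24. The tumours are therefore called SCC7 tumours here, after their label, and not by a squamous phenotype.

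As background, replication is licensed in G1, when the origin recognition complex (Orc1 to Orc6) together with Cdc6 and Cdt1 loads a ring of 6 subunits, Mcm2 to Mcm7, onto DNA, and geminin (Gmnn) blocks Cdt1 afterwards. In S phase the kinase Cdc7 with its activator Dbf4, and the cyclin-dependent kinases, turn the ring into a moving helicase by adding Cdc45 and the GINS complex. Polymerase alpha with primase starts each strand, the RFC complex loads the sliding clamp PCNA, polymerases delta and epsilon copy, and Fen1 and Lig1 trim and seal the lagging strand. Most of these genes are targets of E2F transcription factors, which the retinoblastoma protein holds back until cyclins D and E act. In p53-competent cells, radiation raises Cdkn1a, whose product p21 inhibits those cyclin-dependent kinases.

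The words that E2F factors bind are shown first, because they are in a larger share of member promoters than of other promoters. Promoters, taken as 250 bases before to 50 after the annotated start (RefSeq, build GRCm38.p6), were at hand for 30 of the 38 members. They were not in the table for Mcm4, Gmnn, Gins1, Gins2, Gins4, Pole, Rfc2 and Ccne2. One of the E2F words TTTCCCGC, TTTCGCGC, TTTGCCGC and TTTGGCGC, read on both strands, lay in 13 of the 30 (43.3%). The same words lay in 2.6% of 27025 promoters of all genes and in 4.11% of 12758 promoters of tested genes. The 13 were Mcm3, Mcm5, Mcm6, Mcm7, Cdc6, Cdt1, Orc1, Gins3, Pola1, Pold1, Rfc3, Lig1 and E2f2. Printed here 5′ to 3′ on the gene's strand are the whole Mcm5 promoter, in which overlapping words face both ways, and windows of 30 bases from 7 other members. Capitals mark every E2F word in the stretch shown.
Mcm5 promoter, chr8:75109259-75109558, plus strand: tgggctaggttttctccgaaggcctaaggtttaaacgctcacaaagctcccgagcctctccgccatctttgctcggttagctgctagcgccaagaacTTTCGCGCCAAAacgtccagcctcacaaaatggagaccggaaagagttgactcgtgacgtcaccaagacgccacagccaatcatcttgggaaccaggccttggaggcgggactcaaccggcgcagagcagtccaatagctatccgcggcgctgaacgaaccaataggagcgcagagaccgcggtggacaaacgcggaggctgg
Mcm6, chr1:128359797-128359826, minus strand: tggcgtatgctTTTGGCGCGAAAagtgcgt
Mcm7, chr5:138171849-138171878, minus strand: gggtgacgacgTTTCGCGCcaatttcggtt
Cdc6, chr11:98908002-98908031, plus strand: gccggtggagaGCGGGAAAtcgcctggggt
Cdt1, chr8:122568035-122568064, plus strand: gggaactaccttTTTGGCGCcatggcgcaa
Rfc3, chr5:151651190-151651219, minus strand: cTTTCGCGCtcGCGGGAAAactctactgtc
Lig1, chr7:13278841-13278870, plus strand: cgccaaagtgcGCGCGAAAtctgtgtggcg
E2f2, chr4:136172294-136172323, plus strand: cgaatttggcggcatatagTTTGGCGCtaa
The word of CCAAT boxes, CCAAT on either strand, was in 18 of the 30 member promoters (60.0%) against 42.4% of those of tested genes. The word TTTGAA, the core of the cell cycle homology region of mitotic promoters, was in 7 (23.3%) against 15.4%. The words may overlap each other. A match is a run of letters and not a measured binding site. Among members, the median log2 fold change after radiation was -0.92 for the 13 with an E2F word (range -1.43 to -0.61) and -0.83 for the 17 without (range -1.04 to -0.44), and these ranges overlap.

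Library totals ran from 37099055 to 40004502 counted reads, and no member had fewer than 27 reads in any tumour. Levels below are TMM-scaled CPM, that is, reads per 1000000 corrected for library composition. Cdkn1a, the p53 target, ran from 332 to 765 CPM after radiation and from 184 to 342 CPM without it, with 11 of 12 irradiated tumours above every unirradiated one, the exception being NC IR tumour I-739. These tumours stood apart in composition: OE IR+olaparib tumour EIO-744, with a summed level of 8 fibroblast genes of 104200 CPM, NC IR tumour I-732, with 8 muscle genes summing to 13760 CPM, and NC sham tumour S-761, with the lowest fibroblast sum, 2641 CPM. These sums are CPM before TMM scaling. Bulk RNA cannot tell fewer replicating cells apart from less replication RNA per cell, here or in any value below.

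Radiation, averaged over NC and OE with and without olaparib (12 irradiated against 12 unirradiated tumours), lowered nearly the whole set. In edgeR's quasi-likelihood test 37 of 38 members fell, at an adjusted p under 0.05, and 0 rose, where 17.5% of all tested genes were called lower. The median log2 fold change of the members was -0.89, beside 0.041 over all tested genes. It ran from -1.43 ± 0.20 (SE) for E2f2, an E2F activator (adjusted p = 0.000101), to -0.36 ± 0.089 for Gins4, a GINS subunit. Fitted levels of 10 members were at or below 0.5 times those of unirradiated tumours. Ccne1, encoding cyclin E1, was the member not called, at -0.49 ± 0.21 (adjusted p = 0.0686).

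**Figure D1:**
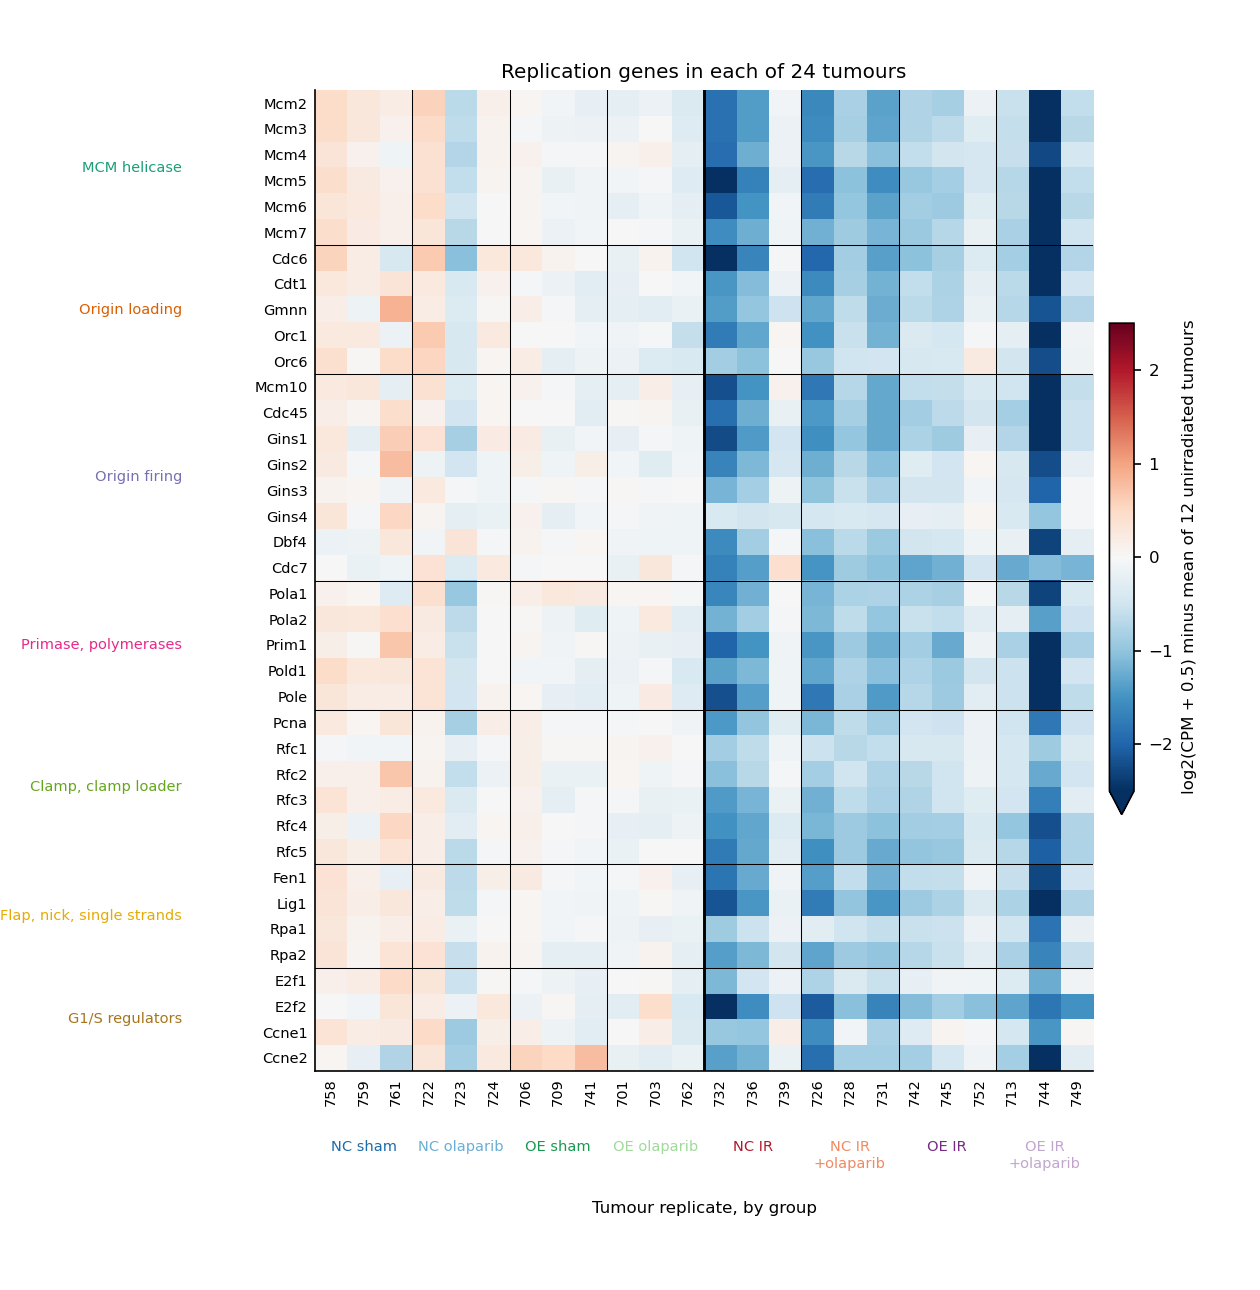
Each cell is log2(CPM + 0.5) of 1 gene in 1 tumour minus the mean of the 12 unirradiated tumours, with genes in rows by role and tumours in columns by group; values under -2.5 take the darkest blue. Irradiated tumours, right of the thick line, are blue for most genes, OE IR+olaparib tumour EIO-744 most of all, while NC IR tumour I-739 is near white.

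The 6 subunits of the MCM ring fell together: 6 of 6 were called lower, with a median log2 fold change of -0.96 and a range from -0.86 for Mcm4 to -1.15 for Mcm5. Mcm5 stood at 376, 325 and 301 CPM in the NC sham tumours and at 42.9, 86.1 and 238.4 CPM in the NC IR tumours. Its OE sham levels were 291, 245 and 260.4 CPM, and its OE IR levels 143, 155 and 208 CPM. In both cell lines every irradiated tumour lay under every sham tumour, with NC IR tumour I-739 much the highest of its group. Under olaparib Mcm5 was 363, 182 and 293 CPM in NC without radiation and 73.9, 136 and 94.8 CPM with it. In OE under olaparib it was 263, 269 and 222 CPM without and 169, 14.6 and 181 CPM with radiation. Over all 24 tumours 10 of 12 irradiated ones lay below every unirradiated one, and the fitted change was -1.15 ± 0.30 (adjusted p = 0.00689). Mcm6 went from a median of 272 CPM (range 196 to 384) in unirradiated tumours to 145 CPM (39.7 to 264) in irradiated ones, a change of -1.04 ± 0.23 (adjusted p = 0.00243). Mcm2, Mcm3, Mcm4 and Mcm7 fell by 0.95, 0.97, 0.86 and 0.92 on the log2 scale.

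The 5 loading factors were all called lower, with a median of -0.88. Cdc6, the ATPase that brings Cdt1 and the ring to the origin, fell most, by 1.17 ± 0.33 (adjusted p = 0.0104). Its irradiated levels ran from 1.805 through a median of 20.7 to 39.0 CPM, and its unirradiated levels from 19.3 through 43.0 to 64.4 CPM. These ranges overlapped. NC olaparib tumour O-723 held the lowest unirradiated value and NC IR tumour I-739 the highest irradiated one, and OE IR tumour EI-752, at 31.6 CPM, was also above NC sham tumour S-761 and OE olaparib tumour EO-762. Cdt1 fell by 0.88 ± 0.20 (adjusted p = 0.00237), from a median of 59.8 to 34.9 CPM. Gmnn, its inhibitor, fell by 0.92 ± 0.17 (adjusted p = 0.00064), from 31.15 to 19.5 CPM at the median, and 11 of 12 irradiated tumours were below every unirradiated one. The log2 ratio of Cdt1 to Gmnn was 0.84 ± 0.23 (SD, n = 12) in irradiated and 0.88 ± 0.22 (SD, n = 12) in unirradiated tumours, a difference of -0.035 that did not pass an exact permutation test within strata (adjusted p = 0.753). Orc1, the ATPase of the origin complex, was called at -0.75 ± 0.29 with an adjusted p of 0.049, at low levels of 0.86 to 11.9 CPM after radiation. That call did not hold with DESeq2's size factors (adjusted p = 0.0521), with no filter (0.062), in the tumours whose labels agree (0.0519) or without any single tumour other than NC IR tumour I-739, NC olaparib tumour O-723, NC IR+olaparib tumour IO-728 and the OE IR+olaparib tumours. Orc6, a subunit that joins the origin complex last, was called at -0.53 ± 0.19 (adjusted p = 0.0326), from a median of 52.8 to 39.3 CPM. This call was lost without NC sham tumour S-758, NC IR tumour I-732 or I-736, NC olaparib tumour O-722, NC IR+olaparib tumour IO-726, OE sham tumour ES-706, OE IR tumour EI-742 or EI-745, OE olaparib tumour EO-701, or the 3 tumours that stood apart, with adjusted p-values up to 0.0696.

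Among the 8 genes of origin firing, 8 were called lower with a median of -0.85, and this role held the widest spread of sizes apart from the G1/S regulators. Gins1 fell by 1.11 ± 0.25 (adjusted p = 0.00267), from a median of 17.4 to 9.22 CPM. Gins4, a partner in the same complex of 4 proteins, fell by only 0.36 ± 0.089 (adjusted p = 0.00529), from 39.3 to 31.3 CPM. Gins4 was 50.8, 40.4 and 59.3 CPM in NC sham and 31.3, 29.6 and 30.9 CPM in NC IR tumours. In OE it was 44.1, 35.2 and 38.9 CPM in sham and 35.5, 35.0 and 42.55 CPM in IR tumours, which overlap. Cdc45, the helicase partner of GINS, fell by 1.00 ± 0.23 (adjusted p = 0.0033). Cdc7, the firing kinase, fell by 0.99 ± 0.20 (adjusted p = 0.00118) with 11 of 12 irradiated tumours below every unirradiated one. The remaining irradiated tumour, NC IR tumour I-739, had 29.3 CPM, above every unirradiated tumour. Dbf4, its activator, fell by 0.65 ± 0.19 (adjusted p = 0.0141), and Mcm10, a scaffold that stabilises the firing helicase, by 0.95 ± 0.31 (adjusted p = 0.0221).

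Primase and polymerase genes were called lower in 5 of 5 cases, with a median of -0.87. Prim1, the catalytic primase subunit, fell by 1.04 ± 0.23 (adjusted p = 0.00238), and Pola2, the accessory subunit of polymerase alpha, by 0.68 ± 0.15 (adjusted p = 0.00206). Prim1 was 42.8, 39.8 and 62.65 CPM in NC sham against 9.34, 13.4 and 36.6 CPM in NC IR, without overlap. Pole and Pold1, the catalytic subunits of the leading and lagging strand polymerases, fell by 1.015 ± 0.26 and 0.87 ± 0.19, and Pola1 by 0.81 ± 0.21.

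The clamp and its loader fell in 6 of 6 cases, with a median of -0.74. Rfc4, a small loader subunit, fell by 0.99 ± 0.16 (adjusted p = 0.000232). It was 9.51, 11.0 and 21.85 CPM in NC IR and 12.3, 14.65 and 13.4 CPM in NC IR+olaparib. In OE IR it was 15.0, 15.3 and 21.4 CPM, and in OE IR+olaparib 14.1, 5.67 and 16.4 CPM. Unirradiated tumours ran from 23.2 through a median of 27.4 to 40.3 CPM, so the 12 irradiated tumours lay below the 12 others without overlap. Only Rfc4 and E2f2 among the 38 members separated all 12 from all 12, where 0.429% of tested genes did so downward. Rfc1, the large loader subunit, had the smallest change of the role, -0.50 ± 0.079 (adjusted p = 0.000217), from 105.7 ± 7.00 to 75.0 ± 12.9 CPM (SD, n = 12 each). Pcna, the clamp itself, was the most abundant member per kilobase of exon and fell by 0.74 ± 0.15 (adjusted p = 0.00149), from a median of 190.1 CPM (104.5 to 232) to 125.5 CPM (53.6 to 168).

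Of the genes for lagging strand maturation and single-strand cover, 4 of 4 fell, with a median of -0.86. Lig1, the ligase that seals Okazaki fragments, fell by 1.09 ± 0.25 (adjusted p = 0.0029), from a median of 146 CPM (93.65 to 181) to 74.9 CPM (12.45 to 129.8). Fen1, the flap nuclease, fell by 0.83 ± 0.21, and Rpa2 and Rpa1, subunits of the single-strand binding complex, by 0.89 ± 0.14 and 0.51 ± 0.135.

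The 4 G1/S regulators were the least uniform role: 3 of 4 fell, and they held the largest change. E2f2 was 18.2, 17.7 and 22.95 CPM in NC sham, and 2.33, 5.93 and 12.8 CPM in NC IR. In OE sham it was 16.6, 18.9 and 15.8 CPM, and in OE IR 8.397, 9.805 and 8.63 CPM. Irradiated tumours under olaparib had 4.00, 8.70 and 5.43 CPM in NC and 7.11, 4.91 and 6.13 CPM in OE. The highest of the 12 irradiated tumours, 12.8 CPM, was under the lowest unirradiated one, 13.95 CPM in OE olaparib tumour EO-762. E2f1, the other activator in the set, fell by 0.44 ± 0.13 (adjusted p = 0.0124), from a median of 54.2 to 42.3 CPM with overlapping ranges. Ccne2, encoding cyclin E2, fell by 0.90 ± 0.26 (adjusted p = 0.0113). Ccne1 was 9.53, 9.37 and 21.4 CPM in NC IR and 23.95, 21.4 and 22.2 CPM in NC sham, and its OE sham and OE IR tumours overlapped (15.6 to 21.2 and 15.1 to 19.9 CPM). It passed the threshold when NC IR tumour I-739 (adjusted p = 0.0175), NC olaparib tumour O-723 (0.0316), NC IR+olaparib tumour IO-728 (0.0308) or OE IR+olaparib tumour EIO-749 (0.0342) was left out.

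**Figure D2:**
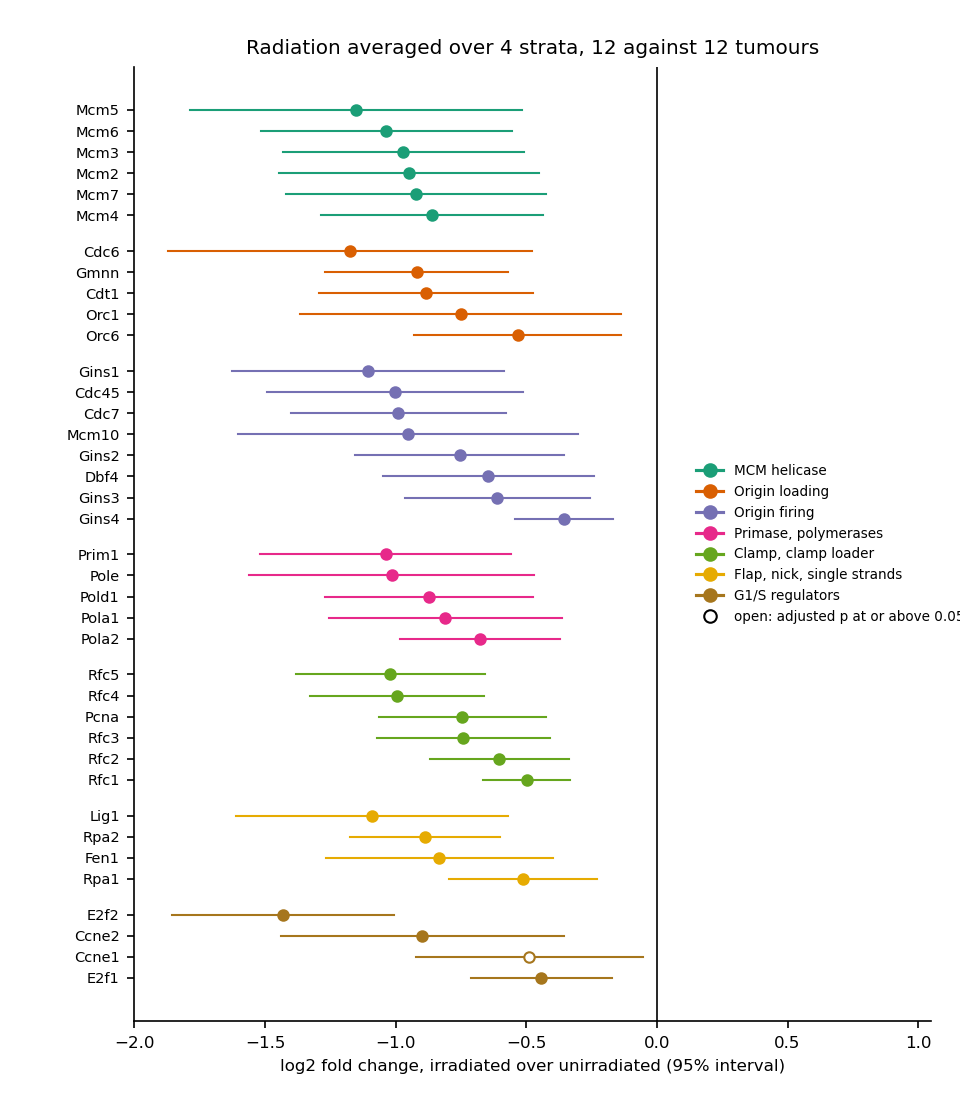
Points are log2 fold changes of irradiated over unirradiated tumours (12 against 12, averaged over 4 strata) with 95% intervals, coloured by role; the open point did not pass an adjusted p of 0.05. All 38 points lie left of 0, from E2f2 at -1.43 to Gins4 at -0.36, and Ccne1 is the open one.

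**Figure D3:**
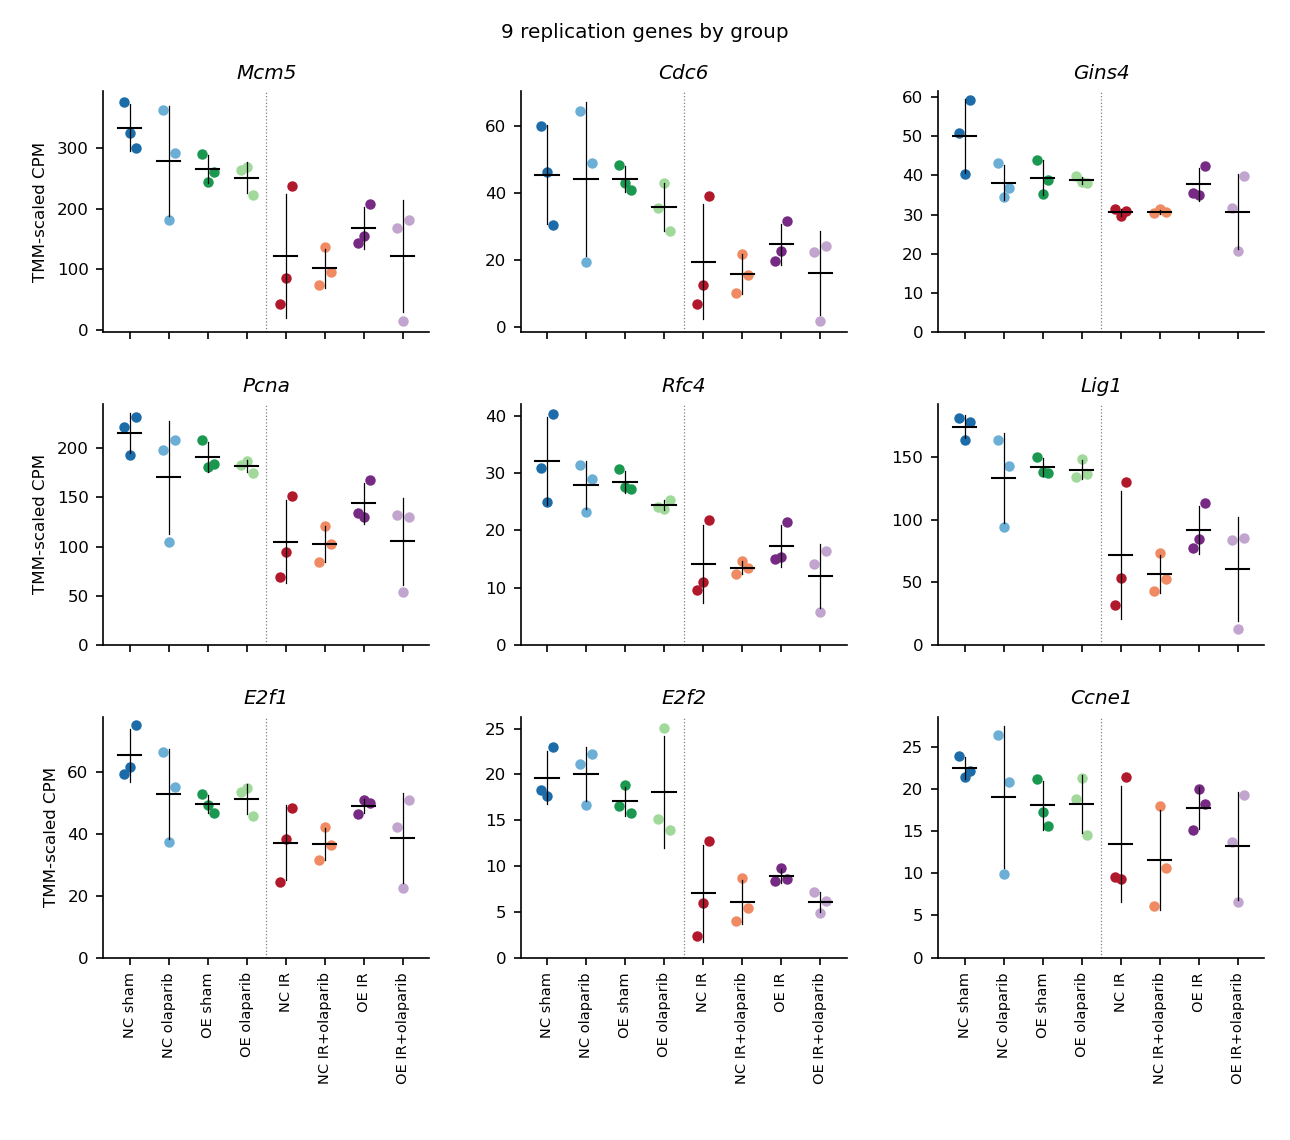
TMM-scaled CPM of 9 members in the 8 groups, with points for tumours, bars for group means and vertical lines for 1 SD (n = 3); irradiated groups stand right of the dotted line. Rfc4 and E2f2 show no overlap across that line, while Mcm5, Cdc6, Gins4, Pcna, Lig1, E2f1 and Ccne1 do.

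Genes outside the set that act beside these proteins were read from 5 lists, in the same comparison. Of 13 other origin and helicase genes 9 fell, with a median of -0.47: Ticrr (-1.29), needed for firing, Recql4 (-0.93) and Mtbp (-0.86) moved most, while Orc3, Orc4, Orc5 and Mcm9 were not called. Of 19 other polymerase and fork genes 18 fell, median -0.79, led by Dscc1 (-1.30), of an alternative clamp loader, Clspn (-1.20), a checkpoint adaptor at the fork, and Dna2 (-1.07), a flap nuclease. Of 13 genes for chromatin behind the fork 12 fell, median -0.83, led by Uhrf1 (-1.33), a partner of Dnmt1, and by the histone chaperone genes Chaf1b (-1.14) and Asf1b (-1.11). The 26 other G1/S regulators split: 14 fell, among them E2f7 (-1.41) and Ccna2 (-1.33), and 5 rose, namely Cdkn1a (1.36), Ccnd2, Ccnd3, Rb1 and Rbl2. Of 15 mitosis genes 11 fell, median -1.004, with Mki67 at -1.27, Aurkb at -1.27 and Bub1b at -1.14.

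Markers of other cells moved in the same comparison, in which 21.7% of all tested genes rose and 17.5% fell. Their summed levels are CPM before TMM scaling. Of macrophage and monocyte genes 8 of 10 rose, and their summed level ran from 3339 to 24400 CPM with radiation against 5346 to 12860 CPM without. Neutrophil genes rose in 6 of 6 tested cases (29.6 to 364 against 21.2 to 43.9 CPM), fibroblast genes in 4 of 8 (3993 to 104200 against 2641 to 6189 CPM), and muscle genes in 6 of 8 (44.7 to 13760 against 19.2 to 1352 CPM). Of endothelial genes 1 of 7 rose (118 to 956.5 against 86.4 to 261 CPM), of squamous genes 3 of 10 (2.70 to 383 against 2.12 to 111 CPM), and 4 of 7 T cell genes fell (24.65 to 158.5 against 44.7 to 329 CPM). The highest fibroblast and endothelial sums were both those of OE IR+olaparib tumour EIO-744. At the median the fibroblast sum was 4965 CPM with radiation and 5681 CPM without, and the endothelial sum 190 and 206 CPM. Median macrophage, neutrophil, muscle and squamous sums were higher with radiation, and the median T cell sum was lower. The squamous list included Epcam, and its genes Krt5, Krt14, Trp63, Krt6a, Krt17 and Cdh3 had 0 reads in at least 1 tumour. The part of these cells in the fall of the replication genes was not tested. Without the 3 tumours that stood apart, 36 members were called lower. The share of all tested genes called lower in that fit is not given here.

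Tumour by tumour, the median of the 38 members relative to the unirradiated mean ran from -2.26 to -0.13 on the log2 scale in irradiated tumours and from -0.52 to 0.28 in unirradiated ones. Of 12 irradiated tumours 9 lay below every unirradiated tumour. The lowest unirradiated one was NC olaparib tumour O-723, at -0.52, with the lowest level of its group in 36 of 38 members, yet with a median of the 15 mitosis genes of 0.16 and Mki67 at 459 CPM, the highest of all 24. Leaving it out made the radiation median -0.94 and the count 38. NC IR tumour I-739 was the irradiated tumour nearest to the unirradiated ones, at -0.13, and highest of its group in 37 of 38 members, with Mki67 at 380 CPM and Cdkn1a at 332 CPM. Without it the radiation median was -1.01 and 38 members were called lower. Its written label is NC IR+olaparib, which is also irradiated. OE IR+olaparib tumour EIO-744 was the lowest of all 24 tumours in 35 of 38 members, with Mki67 at 21.6 CPM. Without it the median log2 fold change was -0.79 and 37 members were still called lower. For these fits with 1 tumour left out, the share of all tested genes called lower is not given here.

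Within each stratum, 3 irradiated tumours faced 3 others, and all 38 members were below 0 in each of the 4 comparisons. With 1 tumour left out, the highest member was above 0 in OE without olaparib (0.109 without ES-706, 0.081 without EI-742) and in OE under olaparib (0.070 without EIO-744). In NC without olaparib 11 members were called lower (5.4% of tested genes), with a median of -1.05 and the largest called changes in E2f2 (-1.48 ± 0.41, adjusted p = 0.0325), Gins2 (-1.36 ± 0.39, adjusted p = 0.0369) and Gmnn (-1.31 ± 0.34, adjusted p = 0.029) by edgeR. Count and median rested on single tumours: the median was -1.64 and the count 36 without NC IR tumour I-739, and the count was 5 without NC sham tumour S-759, and 0 without NC sham tumour S-758 or S-761, or NC IR tumour I-732 or I-736. In OE without olaparib 0 members were called by edgeR or by DESeq2. EdgeR called 0.0664% of tested genes lower there, and DESeq2 called 623 of all genes in either direction. By edgeR 5 of 38 members had an unadjusted p under 0.05, as did 2447 of 16560 tested genes, and the members' median was -0.48. Under olaparib in NC the called member was E2f2 (-1.73 ± 0.41, adjusted p = 0.0475; 0.634% of tested genes), a call lost when any of the 6 tumours was left out, and the median was -1.04. Under olaparib in OE the called members were E2f2 (-1.58 ± 0.41, adjusted p = 0.0339) and Rfc1 (-0.61 ± 0.16, adjusted p = 0.0339), beside 1.37% of tested genes, and the median was -0.89. Leaving out OE IR+olaparib tumour EIO-749 raised that count to 8 and left 2 without tumour EIO-713, whereas leaving out tumour EIO-744 or any OE olaparib tumour made it 0. Without EIO-744 the median was -0.495. Shares of all tested genes beside the counts with 1 tumour left out are not given here.

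Non-overlap gives a view that does not use the fitted spread. Every irradiated tumour lay below every unirradiated one for 30 of 38 members in NC (14.8% of tested genes), 27 in OE (17.8%), 28 in NC under olaparib (17.6%) and 30 in OE under olaparib (13.8%). In all 4 strata at the same time this held for 17 members, where 1.86% of tested genes met it: Mcm3, Mcm5, Mcm6, Mcm7, Cdc45, Gins1, Gins3, Prim1, Pold1, Pole, Rfc1, Rfc3, Rfc4, Rfc5, Lig1, Rpa2 and E2f2. The fall was larger in NC than in OE for 36 of 38 members without olaparib and for 30 of 38 with it, but the difference itself passed for none. Testing the radiation change in OE minus that in NC, edgeR called 0 members (0.00604% of tested genes), and 0 members had an unadjusted p under 0.05. DESeq2 called 0 members and 220 of all genes. The median difference was 0.37, and single tumours moved it: it was 0.66 without NC IR tumour I-739, 0.61 without OE IR+olaparib tumour EIO-744, 0.24 without NC IR tumour I-732, 0.25 without EIO-713 and 0.22 without EIO-749. The lowest adjusted p, 0.494, was that of Rpa2, at 0.51 with a 95% interval from -0.059 to 1.08, and Mcm5, at 0.60, had an interval from -0.65 to 1.86. Differences of more than 1 log2 unit are thus within the interval for some members.

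Subunits of a complex did not all fall by the same amount. For 24 ratios, chosen after the data were seen, the log2 ratio of a member to the mean of the other members of its complex, or to its partner, was compared between irradiated and unirradiated tumours with a two-sided exact permutation test within the 4 strata (160000 assignments). Of these, 13 had an adjusted p under 0.05 over the 24, and 12 of the 13 kept it when each tumour was left out in turn. The share of other gene pairs that would pass was not computed. Ratios within a complex use the same subunits, so a fall of one and a rise of another are not independent results. E2f2 against E2f1 gave the largest difference: -2.504 ± 0.36 in irradiated and -1.53 ± 0.24 in unirradiated tumours (SD, n = 12 each), a difference of -0.98 with 12 of 12 irradiated tumours below every unirradiated one (exact p = 1.25e-05, which is the lowest value that 160000 assignments allow, and adjusted p = 0.0003). In the GINS complex Gins1 lost ground (-0.55, adjusted p = 0.0007 by the exact test) and Gins4 gained (0.52, adjusted p = 0.0007 by the exact test), in the same direction in 4 of 4 strata each.

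In the MCM ring, Mcm5 fell relative to the other 5 subunits, by 0.34 (exact permutation, adjusted p = 0.0003, lower in 10 of 12 irradiated tumours than in every unirradiated one). Mcm4 rose relative to them, by 0.22 (adjusted p = 0.011 by the exact test), and Mcm2, Mcm3, Mcm6 and Mcm7 did not pass. Without OE IR+olaparib tumour EIO-744 Mcm6 did, at -0.093 (adjusted p = 0.0387 by the exact test). In the clamp loader Rfc1 and Rfc2 rose relative to the rest, by 0.36 and 0.23, while Rfc4 and Rfc5 fell, by 0.28 and 0.34. Within polymerase alpha and primase, Pola2 rose by 0.32 and Prim1 fell by 0.35 relative to their partners. Rpa2 fell relative to Rpa1, by 0.33, in 3 of 4 strata. Ccne2 fell relative to Ccne1, by 0.47 (adjusted p = 0.0283 by the exact test), in 3 of 4 strata, with a difference of 0.23 in NC without olaparib. This did not pass without NC sham tumour S-758 or OE olaparib tumour EO-762. Orc1 to Orc6 and Cdc7 to Dbf4 did not pass, at -0.28 and -0.30. Orc1 to Orc6 was -0.34 and at or under the threshold without NC sham tumour S-761 (adjusted p = 0.0476 by the exact test) or OE IR+olaparib tumour EIO-713 (adjusted p = 0.05). Cdc7 to Dbf4 was -0.49 and passed (adjusted p = 0.0241 by the exact test) when OE IR+olaparib tumour EIO-744 was left out. Ratios such as these show unequal change and not which partner stayed constant.

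**Figure D4:**
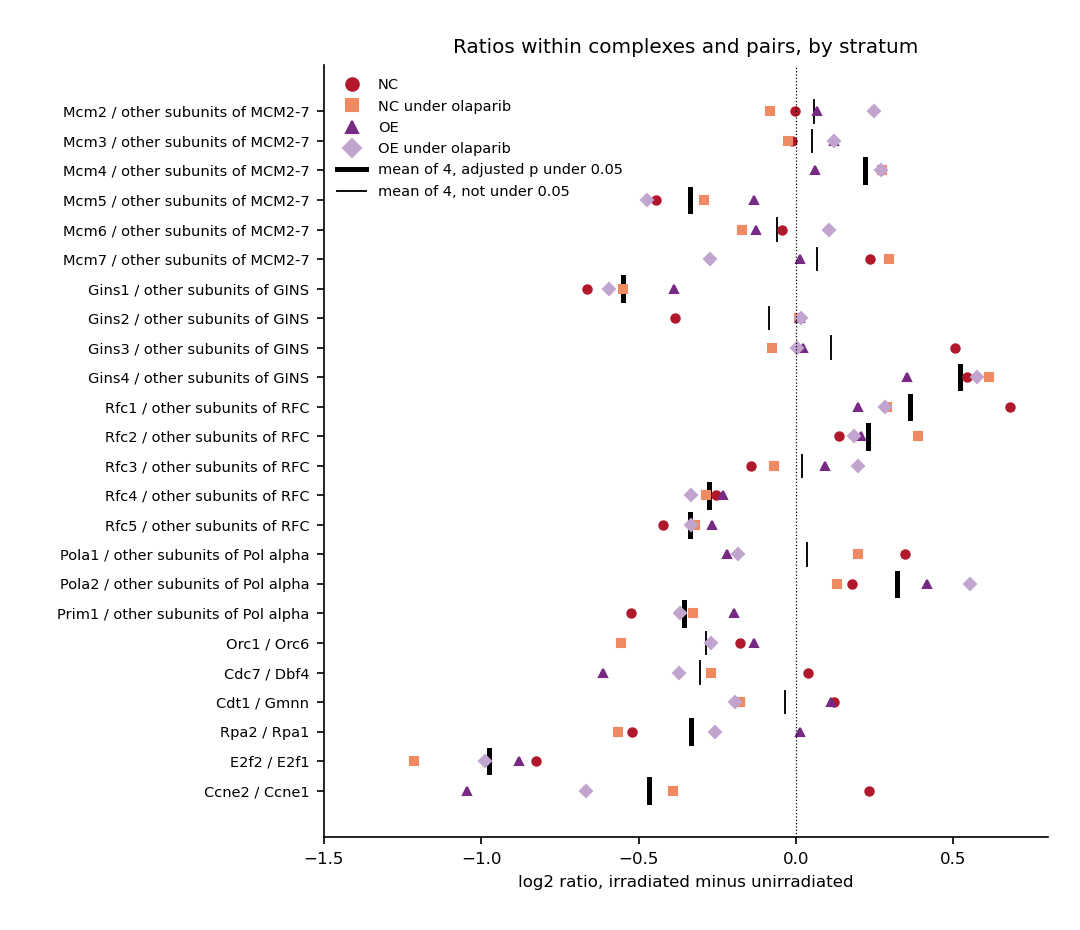
Differences in log2 ratio between irradiated and unirradiated tumours for 24 ratios (rows), with a symbol for each of 4 strata and a bar for their mean, thick where the adjusted p is under 0.05. E2f2 to E2f1 is furthest left at -0.98 and Gins4 to the rest of GINS furthest right at 0.52.

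Levels per kilobase of exon put the members in order of abundance in unirradiated tumours. The scale is TMM-scaled CPM divided by the length of all exons of the gene (GENCODE M21, GRCm38). Pcna was highest, at 79.2 ± 13.4 (SD, n = 12), followed by Mcm5 (70.8 ± 13.9) and Mcm6 (60.6 ± 11.1), whose spreads overlap. Mcm7, Mcm3 and Mcm4 came next at 53.6, 46.9 and 45.4, and Mcm2 was at 20.7 ± 5.10. The order depends on the lengths, which join the exons of all annotated transcripts. The length was 6956 bases for Mcm2 and 3589 bases for Mcm4. Before division their unirradiated means were 143.9 and 162.9 CPM, so the gap between them came largely from the length. Orc1 (3.396 ± 0.81), E2f2 (3.83 ± 0.71), Pole (3.95 ± 0.71) and Mcm10 (4.22 ± 0.72) closed the order, and they do not differ beyond their spread. E2f1, at 17.4 ± 3.18, stood well above E2f2. After radiation Pcna was at 47.6 ± 14.2 and E2f2 at 1.44 ± 0.58, where the spreads of Pole (1.97 ± 0.96) and Orc1 (2.04 ± 1.04) overlapped with it.

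Olaparib moved no member past the threshold. Averaged over 4 strata, edgeR called 0 of 38 members (0.0% of tested genes), and 0 had an unadjusted p under 0.05. DESeq2 called 0 members and 2 of all genes. By edgeR all 38 members nonetheless lay below 0, with a median of -0.23. That median was -0.093 without NC IR tumour I-739, when the highest member was at 0.116, and -0.14 without OE IR+olaparib tumour EIO-744. Gins4, at -0.18 with a 95% interval from -0.36 to 0.0096, had the narrowest margin, and Cdc6, at -0.32, an interval from -1.004 to 0.37. In NC without radiation edgeR called 0 members (0.0% of tested genes), and DESeq2 called 0 members and 13 of all genes. There 2 members had an unadjusted p under 0.05 by edgeR, as did 1602 of 16560 tested genes. In OE without radiation, and with radiation in NC and in OE, edgeR and DESeq2 called 0 members, 0 had an unadjusted p under 0.05 and the background was 0.0% each time. Medians were -0.24 in NC, -0.058 in OE, -0.22 with radiation in NC and -0.46 with radiation in OE. With each tumour left out in turn, the median in NC ran from -0.47 (without O-722) to -0.031 (without O-723), and was -0.146 without S-758. In OE it ran from -0.11 (without EO-703) to 0.0040 (without ES-706), and was -0.0056 without EO-762. With radiation in NC it ran from -0.51 (without I-732) to 0.38 (without I-739). With radiation in OE it ran from -0.76 (without EIO-749) to -0.065 (without EIO-744), and was -0.295 without EI-752. The direction of these medians thus depended on single tumours in OE without radiation and in NC with it. Radiation's change with olaparib minus that without it was tested directly. EdgeR called 0 members (0.0% of tested genes), 0 members had an unadjusted p under 0.05, and the median was -0.19. DESeq2 called 0 members and 6 of all genes. The median was 0.117 without I-739, 0.013 without EIO-744, -0.069 without O-722 and -0.36 without EIO-749. For E2f2 this difference was -0.445 with an interval from -1.28 to 0.39.

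Overexpression of miR-21-5p moved no member past the threshold either. Averaged over 4 strata, 0 of 38 were called by edgeR (0.453% of tested genes) and 0 at an unadjusted p under 0.05, and the median was 0.016. DESeq2 called 0 of 38, and 612 of all genes. The estimate for Mcm5 was 0.059 with a 95% interval from -0.57 to 0.69, and for Rfc4 -0.060 with an interval from -0.39 to 0.27. The medians were -0.28 in sham, 0.35 in IR, -0.087 in olaparib and 0.12 in IR+olaparib tumours. With each tumour left out in turn, the average ran from -0.041 (without I-732) to 0.19 (without I-739), the median in sham from -0.35 to -0.20, and that in IR from 0.054 (without I-732) to 0.88 (without I-739). In olaparib tumours it ran from -0.27 (without O-723) to 0.088 (without O-722), and in IR+olaparib tumours from -0.17 (without EIO-749) to 0.54 (without EIO-744), so that the average and the medians in olaparib and IR+olaparib tumours took both signs. In each of these 4 groups edgeR and DESeq2 called 0 members and 0 had an unadjusted p under 0.05. By edgeR the background of called genes was 0.0845% in IR and 0.0% in each of the others. Of all genes, DESeq2 called 344 in sham, 789 in IR, 7 in olaparib and 131 in IR+olaparib tumours. Ccne2 in sham tumours was 34.2, 32.9 and 39.8 CPM in OE against 23.9, 20.0 and 13.6 CPM in NC, without overlap, the largest of these differences at 0.90 log2 units, and was not called. In IR tumours the NC and OE ranges overlapped for Mcm5 (42.9 to 238.4 and 143 to 208 CPM), with NC IR tumour I-739 above all 3 OE tumours.

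**Figure D5:**
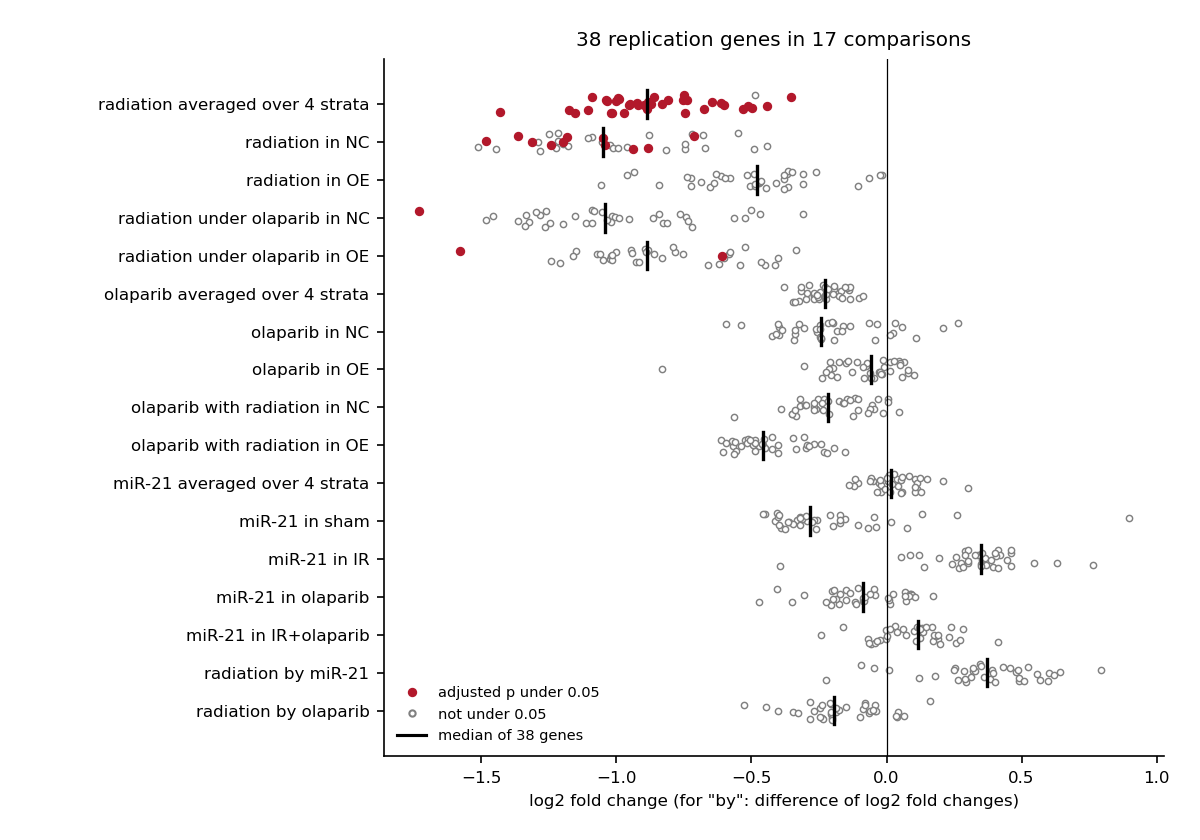
Log2 fold changes of the 38 members in 17 comparisons (rows), with red points for those called at an adjusted p under 0.05 and bars for the median. Red points appear only in the radiation comparisons, 37 of them in the average over 4 strata, and the radiation rows lie furthest left.

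Grouped by the written label in place of the identifier, radiation called 0 members lower (0.00604% of tested genes). By edgeR 31 of 38 members had an unadjusted p under 0.05, as did 5099 of 16560 tested genes. The members' median was -0.49, with all 38 below 0. E2f2 was then -0.59 ± 0.21 (adjusted p = 0.084), with irradiated tumours at 2.33 to 25.1 CPM and the others at 6.13 to 22.95 CPM. The written grouping instead called 26 members higher in OE IR than in NC IR tumours (5.56% of tested genes were called higher) and 1 higher in NC IR+olaparib than in NC IR (1.09%). In the 16 tumours on whose radiation status both labels agree, 8 irradiated and 8 not, 36 of 38 members were called lower, where 16.5% of 14668 tested genes were. Orc1 and Ccne1 were the members not called. In these tumours Gmnn, Gins3, Rfc4 and E2f2 did not overlap (2.65% of tested genes), with E2f2 at -1.46 ± 0.27.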

How the data were processed

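Per the labels' protocols, total RNA was extracted with TRIzol and made into libraries with the VAHTS Universal V5 kit. Per the submitters' processing notes, fastp, HISAT2, HTSeq and build mm10 were used; versions, options and strand setting are not given in the sources used here. The authors deposited raw read counts per gene, without normalization, for 24 tumours. These counts were tested with edgeR 4.0.16 in R 4.3.3 (filterByExpr, TMM, quasi-likelihood F-tests over all 8 groups of 3, Benjamini-Hochberg over 16560 genes, threshold 0.05). SE is the fold change divided by the root of F. Exact permutations within 4 strata were run for the ratios, on log2(CPM + 0.5). Totals per tumour were 37099055 to 40004502 reads, so the spread between tumours limits precision. Alternatives were DESeq2 1.42.0 size factors and test, no filter, only the compared groups, the written label, and leaving out each tumour; 2 were added after seeing the data, the ratios and a fit without 3 tumours. The edgeR test of the radiation average and the exact permutation were tested on simulated data, and the other procedures were not. Members and gene lists were chosen with earlier results of these data known. Every member may be named; other genes are up to 3 called ones per list with the largest change, with Cdkn1a, Mki67 and all risen G1/S regulators, the last chosen after their values were seen. In stratum comparisons with over 10 called members the 3 largest are named, and further members chosen after their values were seen.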

Additional observations from a re-analysis of the deposited data

How the results depend on the processing

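By the identifier groups, the number of members lower after radiation in the average over 4 strata was 37, with 35 to 38 when each tumour was left out; grouped by the written label it was 0, and the cause was not tested. In NC without olaparib the count of 11 became 5 with no filter on low counts and 0 with only the compared groups, with the written label, or without the 3 tumours of unlike composition (0 to 36 leaving out each tumour). In OE without olaparib 0 became 15 with only the compared groups and 1 without the 3 tumours. Under olaparib in NC 1 became 2 with DESeq2's size factors and 10 with the DESeq2 test. There the DESeq2 test called 1374 of all genes in either direction. The count was 24 with only the compared groups, 33 without the 3 tumours, and 0 with no filter or with the written label (0 to 0 leaving out each tumour). Under olaparib in OE 2 became 6 with the DESeq2 test, which called 2392 of all genes in either direction. The count was 1 with no filter or without the 3 tumours, and 0 with only the compared groups or the written label (0 to 8 leaving out each tumour). Shares of all tested genes are not given here for only the compared groups, no filter, DESeq2's size factors or fits without tumours. Counts under those settings therefore do not tell a change in the members from a change in all genes. By the written label 26 members were higher in OE IR than in NC IR tumours, and 1 was higher in NC IR+olaparib than in NC IR; both counts were 0 by the identifier groups. Direction was checked gene by gene for the radiation average and for the ratios, where none reversed for a called value. Other comparisons were checked by counts alone. For olaparib with radiation in NC, 35 of 38 members were below 0 by the identifier groups, with a median of -0.22. By the written label 0 of 38 were below 0, with a median of 0.91. No paired analysis was possible because the replicate numbers, taken from the identifiers, are not shared between groups. Of the 13 ratios called, 8 were also called by the written label, among them Mcm5 (-0.24) and Gins4 (0.34), and E2f2 to E2f1 (-0.30) was not. With 3 tumours in each group, stratum counts moved with 1 tumour more than the average did.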
